A study of Mus musculus with 10 samples.

Results

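The Schlafen genes are a family of 7 mouse genes in these data, Slfn1, Slfn2, Slfn3, Slfn4, Slfn5, Slfn8 and Slfn9, chosen by gene symbol from the 22329 genes of the deposited expression table. All 7 had a row and all 7 passed the filter on low values. Messenger RNA was sequenced from 10 subcutaneous tumours of B16F10, a mouse melanoma cell line, grown in C57BL6/J mice. In 5 tumours a mixture of cytokine mRNAs was injected once into the tumour, made up of 20 µg for each of murine single chain IL-12, IL-15sushi, GM-CSF and IFNalpha, 80 µg together. The other 5 tumours received 80 µg of luciferase mRNA as the control injection. All tumours were taken 7 days after the injection, so both groups carry the same cell line and received the same mass of mRNA. Libraries are numbered as in the sample titles, 6 to 10 for cytokine mRNA and 1 to 5 for luciferase mRNA. The comparison asks which Schlafen genes differed between the groups at that time. Tumours of 1 cell line were used, and the labels give no age or sex of the mice.

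Schlafen proteins are known as regulators of cell growth in lymphocytes and myeloid cells, and the name comes from the German word for sleep, after the growth arrest that the founding gene caused in mouse thymocytes. Several members are induced by type I interferon. Mouse members fall into short proteins (Slfn1 and Slfn2), intermediate ones (Slfn3 and Slfn4) and long ones that add a helicase-like region (Slfn5, Slfn8 and Slfn9). Some human Schlafen proteins cut tRNA, while mouse Slfn2 binds tRNA and shields it from angiogenin in activated T cells. In the GENCODE M21 mouse annotation the longest coding sequences are 1011 bases for Slfn1, 1134 for Slfn2, 1806 for Slfn4, 1920 for Slfn3, 2652 for Slfn5 and 2730 for each of Slfn8 and Slfn9.

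TPM, a transcript abundance unit, is a share of each library corrected for transcript length, and the sequencing depth is unknown. Library 10 had the lowest mean log2(TPM + 1) of 12 pan-leukocyte genes in the cytokine mRNA group, 4.604, against 6.13 to 7.77 in libraries 6 to 9 and 2.31 to 4.25 in the luciferase mRNA tumours. Library 7 had the highest, and library 5 the lowest of all 10. Mitochondrial genes took 4.44% to 19.2% of the TPM in cytokine mRNA tumours and 16.2% to 27.9% in luciferase mRNA tumours. The label of a melanoma was checked with 10 melanocyte genes. They summed to 10995 to 30014 TPM in cytokine mRNA libraries 6, 8, 9 and 10. In luciferase mRNA tumours they summed to 4608 TPM in library 1 and 21444 to 24868 TPM in libraries 2 to 5. Library 1 also had the highest pan-leukocyte mean of the luciferase mRNA tumours, 4.25. Library 7 was lower still in melanocyte genes. Its sum was 1477 TPM, of which Gpnmb, a gene that macrophages also express, made up 1435 TPM, and 8 of the 10 genes were under 5 TPM. Among them Pmel was at 1.22 TPM and Sox10 at 2.18 TPM in library 7, and Slc45a2 and Oca2 were listed at 0. The tumour that was highest in leukocyte genes and in 5 Schlafen genes thus held little melanocyte RNA, and the part of this in the Schlafen values was not tested. Without library 7, Slfn8 (2.85; limma adjusted p = 0.0222) and Slfn2 (2.92; limma adjusted p = 0.0362) remained called and Slfn1 did not.

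Slfn8, Slfn2 and Slfn1 rose in the cytokine mRNA tumours, and the other 4 members did not pass the test. Slfn4 and Slfn5 were higher in 4 of 5 cytokine mRNA tumours than in any luciferase mRNA tumour, without passing. The difference of Slfn3 had the opposite sign, and that of Slfn9 was -0.12 or, after median-ratio scaling, 0.04, and neither passed. In bulk tumours, fewer cells of a type and less RNA per cell cannot be told apart, and leukocyte markers, described further on, moved with these genes. The test was limma on log2(TPM + 1) over 12497 genes, with a call at a Benjamini-Hochberg adjusted p under 0.05 over all of them. It called 3 of 7 members, all higher, where 10.4% of all genes tested were called, 7.41% higher and 3.02% lower. The median log2 change of the 7 members was 2.24, against -0.18 over all genes tested. The groups failed to overlap in 1 of 7 members, Slfn8, with cytokine mRNA tumours above. They failed to overlap in 9.23% of all genes tested, and in 5.45% with cytokine mRNA tumours above. Of 1304 genes called, 71.0% were higher, against 60.0% of 1444 after rescaling without the 50 most abundant genes, which moved the median of all genes to -0.28. Leaving out 1 library gave between 367 called genes (without library 6) and 3238 (without library 10). The count was also lower by over 1.5 times without libraries 2 (577), 3 (680), 4 (554), 5 (548), 7 (860), 8 (492) and 9 (676). The count of called members was 1 without library 6 (Slfn8) and 6 without library 10 (all but Slfn9). It was 0 without libraries 6 and 7 together, where 20 of all 12497 genes tested were called.

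**Figure D1:**
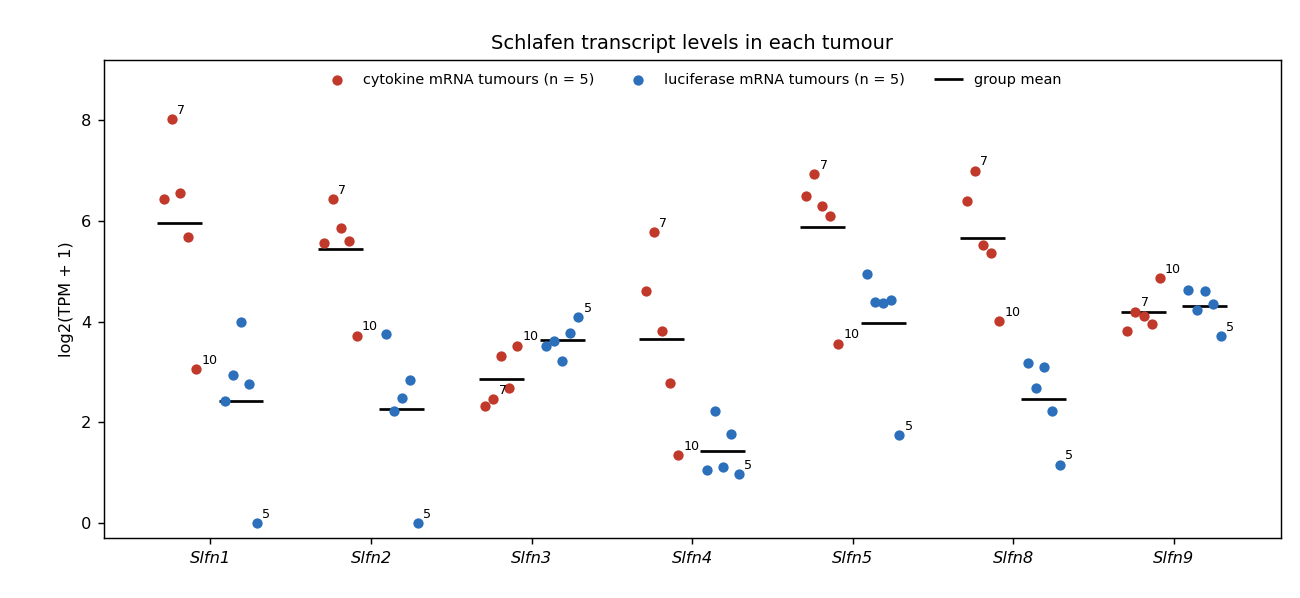
Level of each Schlafen gene in each tumour as log2(TPM + 1), with cytokine mRNA tumours in red, luciferase mRNA tumours in blue and a black line at the mean of each group (n = 5). Libraries 5, 7 and 10 are numbered: in Slfn1, Slfn2, Slfn4, Slfn5 and Slfn8, library 7 was highest and library 10 lowest of the cytokine mRNA tumours.

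Of the short members, Slfn1 is the founding gene, whose forced expression halts the growth of mouse thymocytes. Slfn1 was at 85.4, 259, 93.5, 50.5 and 7.29 TPM in cytokine mRNA libraries 6 to 10, and at 4.37, 6.63, 15.02, 5.83 and 0 TPM in luciferase mRNA libraries 1 to 5. Libraries 6 to 9 lay above every control, while library 10 lay among the controls, so the groups overlapped. The log2 change was 3.53 ± 0.90 (SE; limma adjusted p = 0.0321). Slfn1 was listed at 0 in library 5, and as the sequencing depth is unknown, that value need not mean absence. In each library 2 to 7 ribosomal protein genes were also listed at 0, and whether these are expressed in such tumours was not checked. Without library 5 the change was 2.92 (limma adjusted p = 0.0682), and without library 7 it was 3.01 (limma adjusted p = 0.0616). The call held in 2 of the 10 fits that leave out 1 library, those without library 3 and without library 10.

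Slfn2, the other short member, keeps mouse T cells and monocytes quiescent. It was at 46.1, 85.6, 56.9, 47.5 and 12.2 TPM in cytokine mRNA libraries 6 to 10, against 12.5, 3.67, 4.61, 6.17 and 0 TPM in luciferase mRNA libraries 1 to 5. The groups overlapped only through library 10 and control library 1, which were nearly equal. The log2 change was 3.17 ± 0.67 (SE; limma adjusted p = 0.0177). The call held in 9 of the 10 fits that leave out 1 library and missed without library 6 (limma adjusted p = 0.0535). Without library 5, where Slfn2 too was listed at 0, the change was 2.61 (limma adjusted p = 0.0297).

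Of the intermediate members, Slfn4 is an interferon-induced gene of mouse macrophages and other myeloid cells. Slfn4 was at 23.3, 54.0, 13.1, 5.87 and 1.54 TPM in cytokine mRNA libraries 6 to 10, and at 1.08, 3.69, 1.15, 2.41 and 0.967 TPM in luciferase mRNA libraries 1 to 5. The levels in the cytokine mRNA group spread over a wide range, from library 10 within the control range to library 7. The mean was 19.5 ± 20.9 TPM in cytokine mRNA tumours and 1.86 ± 1.18 TPM in luciferase mRNA tumours (SD, n = 5 each). Without library 7 the mean of the cytokine mRNA tumours was 10.9 TPM. The log2 change of 2.24 ± 0.70 (SE) did not pass (limma adjusted p = 0.0630). It passed without library 10, at 2.82 (limma adjusted p = 0.00505).

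Slfn3 is the nearest neighbour of Slfn4 on the chromosome and has been studied in mouse T cells and gut epithelium. Slfn3 was at 4.02, 4.48, 9.02, 5.46 and 10.5 TPM in cytokine mRNA libraries 6 to 10, and at 10.5, 11.2, 8.37, 12.7 and 16.02 TPM in luciferase mRNA libraries 1 to 5. Cytokine mRNA libraries 6, 7 and 9 lay below every control, and the highest value of all was in library 5. The log2 change of -0.78 ± 0.30 (SE) did not pass (limma adjusted p = 0.110). It passed without library 10, at -0.95 (limma adjusted p = 0.0372), and ranged from -0.95 to -0.65 when 1 library was left out. Over the 24 alternatives it lay between -0.95 and -0.46. Some of these change only the p-value or the threshold and cannot change the sign.

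Slfn8, the first of the long members, was at 83.4, 127, 44.8, 40.2 and 15.1 TPM in cytokine mRNA libraries 6 to 10. In luciferase mRNA libraries 1 to 5 it was at 8.06, 5.38, 7.57, 3.69 and 1.23 TPM. Every cytokine mRNA tumour, library 10 included, lay above every luciferase mRNA tumour. The mean was 62.1 ± 43.6 TPM in cytokine mRNA tumours and 5.19 ± 2.82 TPM in luciferase mRNA tumours (SD, n = 5 each). The log2 change was 3.19 ± 0.55 (SE; limma adjusted p = 0.0121), and the call held in all 10 fits that leave out 1 library. It was lost without libraries 6 and 7 together, at a change of 2.50 (limma adjusted p = 0.0697).

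Slfn5, another long member, was at 88.8, 121, 78.0, 67.4 and 10.8 TPM in cytokine mRNA libraries 6 to 10. It was at 30.0, 20.1, 19.6, 20.6 and 2.35 TPM in luciferase mRNA libraries 1 to 5. Libraries 6 to 9 lay above every control, and library 10 lay below 4 of the 5 controls. The mean was 73.2 ± 40.1 TPM in cytokine mRNA tumours and 18.5 ± 10.0 TPM in luciferase mRNA tumours (SD, n = 5 each). The log2 change of 1.90 ± 0.71 (SE) did not pass (limma adjusted p = 0.0991), and passed without library 10, at 2.48 (limma adjusted p = 0.0108). An antisense gene, Slfn5os, overlaps Slfn5, and since the use of strand in counting is not given in the sources used here, their reads cannot be told apart.

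Slfn9, a long member next to Slfn8, was at 13.1, 17.4, 16.2, 14.5 and 28.1 TPM in cytokine mRNA libraries 6 to 10. It was at 23.9, 17.8, 23.6, 19.4 and 12.1 TPM in luciferase mRNA libraries 1 to 5. The groups overlapped, with the lowest value in control library 5 and the highest in library 10. The mean was 17.8 ± 5.94 TPM in cytokine mRNA tumours and 19.4 ± 4.81 TPM in luciferase mRNA tumours (SD, n = 5 each). The log2 change of -0.12 ± 0.27 (SE) did not pass (limma adjusted p = 0.770), nor did it in any of 24 alternatives, and it was 0.04 after median-ratio scaling, which moved the median of all genes to -0.03. Schlafen genes share stretches of sequence, so reads could be split between them. The shares below count the pseudogene Slfn10-ps, which has no row, as another Schlafen gene. It was the closest gene to both Slfn8 and Slfn9, sharing 10.1% of the stretches of Slfn8 and 8.10% of those of Slfn9. Of the distinct 50-base stretches in its annotated transcripts, Slfn8 shares 14.6% with another Schlafen gene, Slfn9 11.2%, Slfn4 8.15%, Slfn3 7.39%, Slfn2 4.27%, Slfn1 0.606% and Slfn5 none.

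**Figure D2:**
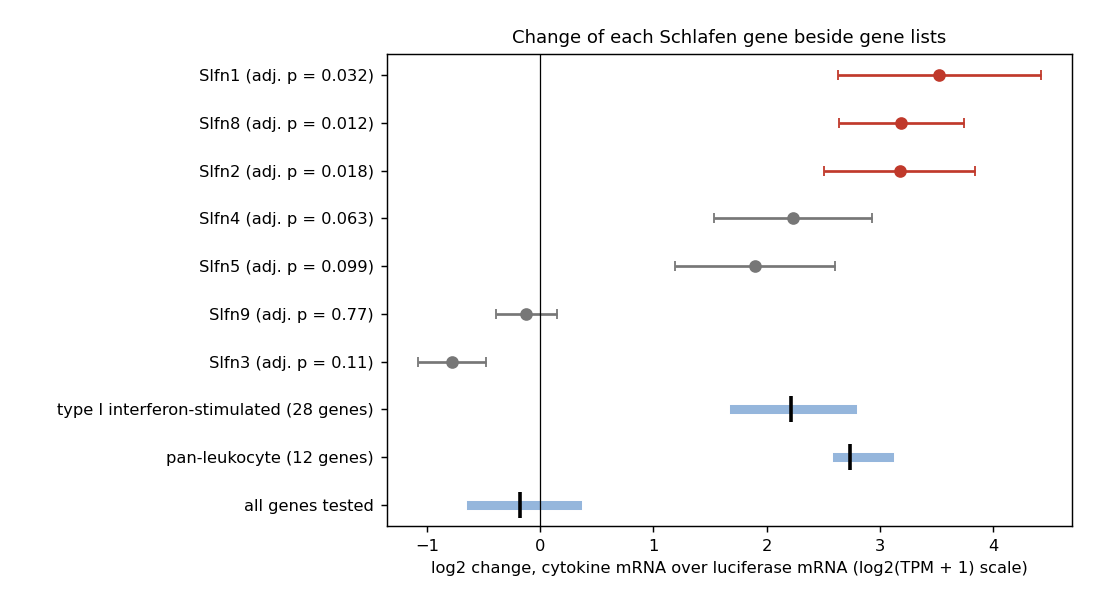
Log2 change of each Schlafen gene (points, bars 1 SE, red where the adjusted p is under 0.05) above the median and the interquartile range of the changes of 28 type I interferon-stimulated genes, 12 pan-leukocyte genes and all genes tested (black mark and blue bar). The median of all 7 members was 2.24, against 2.21 for the interferon-stimulated genes and 2.73 for the pan-leukocyte genes. The 3 members that passed the test lie at 3.17 to 3.53, Slfn3 at -0.78 and Slfn9 at -0.12 (0.04 after median-ratio scaling).

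Other Schlafen genes with a row were close to 0. Slfn14 was listed above 0 in library 7 (0.128 TPM) and library 5 (0.237 TPM) and at 0 in the other 8, and Slfnl1, which lies on another chromosome, stayed at or under 0.359 TPM. Neither entered the test. Slfn10-ps, a pseudogene of the family, is not analysed here.

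The members were also summed in each tumour, per transcript length. The 7 genes together summed to 344, 668, 312, 232 and 85.5 TPM in cytokine mRNA libraries 6 to 10, and to 90.3, 68.5, 79.8, 70.8 and 32.7 TPM in luciferase mRNA libraries 1 to 5. Library 10 lay below control library 1, and libraries 6 to 9 lay above all controls. Slfn3 and Slfn9 together made up 4.97%, 3.27%, 8.09% and 8.61% of the sum in libraries 6 to 9 and 45.1% in library 10. In luciferase mRNA libraries 1 to 5 the same pair made up 38.1%, 42.4%, 40.0%, 45.3% and 86.1%. Library 10 thus lay within the control range and the other cytokine mRNA tumours outside it. Slfn8 took 18.5% ± 3.61 of the sum in cytokine mRNA tumours and 7.05% ± 2.46 in luciferase mRNA tumours (SD, n = 5 each). Slfn1 took 8.52% to 38.8% in cytokine mRNA tumours and 0 to 18.8% in luciferase mRNA tumours. These sums and shares are given as a description, without a p-value.

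**Figure D3:**
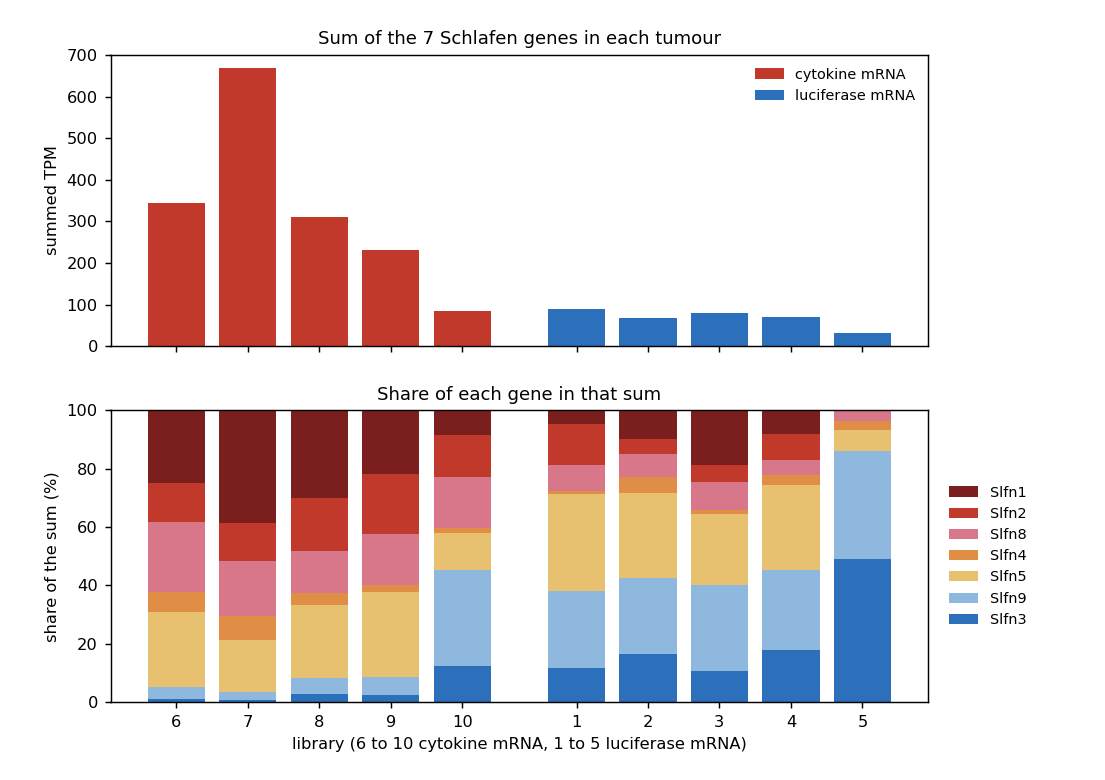
Summed TPM of the 7 Schlafen genes in each tumour (top) and the share of each gene in that sum in percent (bottom), with cytokine mRNA libraries 6 to 10 left of luciferase mRNA libraries 1 to 5. The sum was 232 to 668 TPM in libraries 6 to 9, and the share of Slfn3 and Slfn9 (blue shades) in library 10, 45.1%, was like that of the controls.

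Per transcript length, the order of the members by mean level also differed between the groups. In cytokine mRNA tumours it ran Slfn1, Slfn5, Slfn8, Slfn2, Slfn4, Slfn9 and Slfn3. Among neighbours in that order, Slfn2 was above Slfn4, and Slfn9 above Slfn3, in 5 of 5 tumours. The other neighbours changed places from tumour to tumour, and Slfn1 was above Slfn5 in 2 of 5. In luciferase mRNA tumours the order was Slfn9, Slfn5, Slfn3, Slfn1, Slfn2, Slfn8 and Slfn4. There Slfn8 was above Slfn4 in 5 of 5 tumours, Slfn5 above Slfn3 and Slfn3 above Slfn1 in 4 of 5, and the remaining neighbours in 2 of 5.

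Unequal change between members was tested within tumours, as the difference of log2(TPM + 1) between the members of a pair, over 21 pairs. Slfn8 exceeded Slfn9 by 1.47 ± 1.45 in cytokine mRNA tumours and fell short of it in luciferase mRNA tumours, with a difference of -1.84 ± 0.48 (SD, n = 5 each). The contrast of 3.31 had an exact 2-sided permutation p of 0.00794, the smallest that 5 against 5 tumours allow, and p = 0.0556 adjusted over the 21 pairs. Slfn3 relative to Slfn8 (-3.97) and Slfn2 relative to Slfn5 (1.28) had the same exact permutation p. With these adjusted exact permutation values 0 of 21 pairs passed, and 13 had an unadjusted p under 0.05. Without library 10, 12 pairs passed, made up of all 10 pairs of Slfn3 or Slfn9 with Slfn1, Slfn2, Slfn4, Slfn5 or Slfn8 and of Slfn1 and Slfn2 with Slfn5. Between the 3 called members the contrasts were 0.35 for Slfn1 relative to Slfn2 (exact permutation p = 0.516), 0.34 for Slfn1 relative to Slfn8 (exact permutation p = 0.563) and -0.02 for Slfn2 relative to Slfn8 (exact permutation p = 0.952), which does not show that they changed alike.

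The 7 members lie in 1 cluster on mouse chromosome 11. From left to right in the annotation of the mouse genome build GRCm38 they are Slfn5, Slfn9, Slfn8, Slfn2, Slfn1, Slfn4 and Slfn3, with Slfn10-ps between Slfn8 and Slfn2 and Slfn14 at the right end, over 335 kb (chr11:82951349-83286726). Slfn9 and Slfn8 point the same way and are 10.3 kb apart, and Slfn8 rose while Slfn9 did not pass. Slfn4 ends 1113 bases before the start of Slfn3, on the same strand, and their log2 changes were 2.24 and -0.78. Of the protein-coding genes near the cluster, Nle1 and Ap2b1, named after their values were seen, did not pass. Nle1, a ribosome assembly factor, was at 20.7 ± 7.62 TPM in cytokine mRNA tumours and 24.6 ± 7.68 TPM in luciferase mRNA tumours (limma adjusted p = 0.587). Ap2b1, an endocytic adaptor subunit, was at 85.6 ± 17.3 TPM in cytokine mRNA tumours and 93.1 ± 9.08 TPM in luciferase mRNA tumours (limma adjusted p = 0.637; SD, n = 5 each). Unc45b, between Nle1 and Slfn5, was below the filter.

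**Figure D4:**
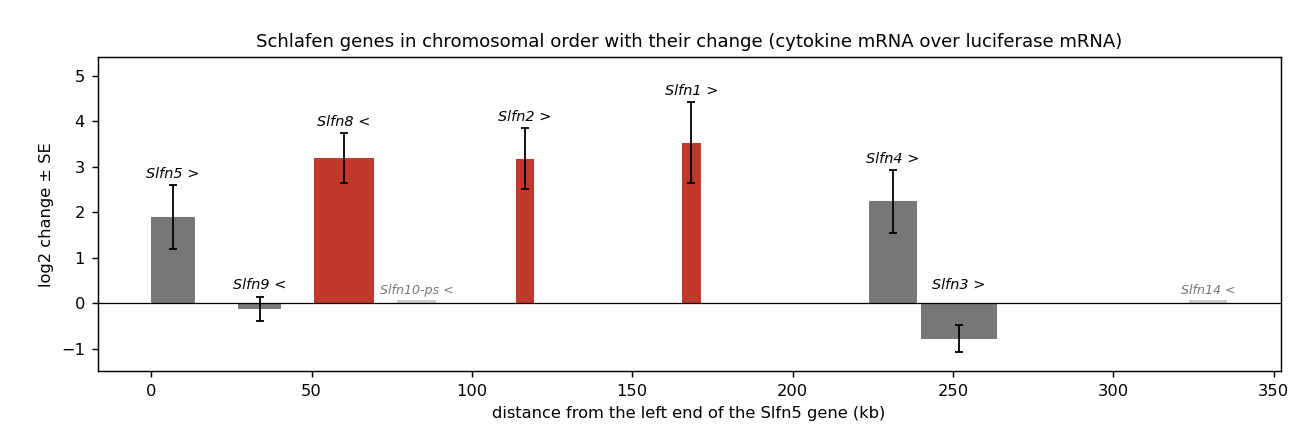
Schlafen genes by distance in kb from the left end of Slfn5, each bar as wide as the gene and as high as its log2 change (error bar 1 SE, red where called), with > or < for the strand. Slfn9 (-0.12, or 0.04 after median-ratio scaling) and Slfn3 (-0.78) stand beside Slfn8 (3.19) and Slfn4 (2.24); Slfn10-ps and Slfn14 are shown in pale grey for position only.

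Promoters are shown because neighbours in the cluster had unlike values. The RefSeq promoter table of build GRCm38.p6, which covers 250 bases before to 50 bases after each gene start, holds all 7 members in 8 entries. The letters GAAA, any 2 bases and GAAA, on either strand (TTTC, any 2 bases and TTTC on the other), close to the interferon-stimulated response element that interferon-activated factors bind, were present in 3 of 7 members, Slfn5, Slfn8 and Slfn9. They were present in 3.99% of all 27025 genes of that table. The letters TTCNNNGAA, close to the gamma-activated sequence of interferon gamma responses, were present in 0 of 7 members and in 9.55% of all genes. The 250 bases before the start are printed for those 3 members, 5′ to 3′ along the gene's strand, with the matched letters in capitals, to show the same 10 letters in Slfn8 and Slfn9. The regions are chr11:83020811-83021060 (minus strand) for the first of 2 Slfn8 entries, chr11:82991831-82992080 (minus strand) for Slfn9 and chr11:82951852-82952101 (plus strand) for Slfn5.
Slfn8: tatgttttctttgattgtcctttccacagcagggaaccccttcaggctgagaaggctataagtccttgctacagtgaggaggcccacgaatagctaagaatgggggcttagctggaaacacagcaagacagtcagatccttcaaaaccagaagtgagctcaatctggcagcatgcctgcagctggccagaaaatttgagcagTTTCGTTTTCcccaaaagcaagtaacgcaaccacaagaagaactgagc
Slfn9: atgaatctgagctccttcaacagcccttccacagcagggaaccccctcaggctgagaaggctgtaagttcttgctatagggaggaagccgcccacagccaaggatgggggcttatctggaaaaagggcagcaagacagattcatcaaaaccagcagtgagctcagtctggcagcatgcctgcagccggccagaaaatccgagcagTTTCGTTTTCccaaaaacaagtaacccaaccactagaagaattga
Slfn5: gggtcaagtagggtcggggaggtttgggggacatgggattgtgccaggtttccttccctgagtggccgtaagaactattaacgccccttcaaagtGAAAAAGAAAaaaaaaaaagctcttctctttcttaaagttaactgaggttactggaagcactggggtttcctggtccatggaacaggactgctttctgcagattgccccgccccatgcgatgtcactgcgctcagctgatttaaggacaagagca

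The match begins 48 bases before the start in the printed Slfn8 entry, 136 bases before it in the other Slfn8 entry, and 45 bases before it in Slfn9, with the same 10 letters in each. The 2 printed upstream regions of Slfn8 and Slfn9 were identical at 204 of 255 aligned columns, while the other pairs of members had 42.9% to 50.4% identity. Slfn8, with these letters, rose by 3.19 on the log2 scale, and Slfn9, with the same letters, had a change of -0.12 that did not pass. In Slfn5 the match begins 155 bases before the start, at the edge of a run of A. The RefSeq start used for Slfn5 lies 753 bases inside the gene as GENCODE M21 annotates it, so the printed region is not upstream of the GENCODE start. The called members Slfn1 and Slfn2 had no match in their window. A match is a description of letters, and no match says only that they are absent from this window.

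Genes of the interferon response were set beside the family. The list of type I interferon-stimulated genes held 28 genes, 23 of them called higher and 0 called lower, with a median log2 change of 2.21. The 4 called genes with the largest change were Ifi44, Oas3, Oasl2 and Zbp1, at 3.34, 3.33, 3.19 and 3.09, next to 3.17 to 3.53 for the called Schlafen genes. Oasl2, a gene of the oligoadenylate synthetase family, was at 616 ± 365 TPM in cytokine mRNA tumours and 65.7 ± 31.5 TPM in luciferase mRNA tumours (SD, n = 5 each; limma adjusted p = 0.00994). Without libraries 6 and 7 together 1 of the 28 was called, and 20 of all 12497 genes tested. Of 12 interferon receptors, kinases and factors 6 were called higher and 0 lower. Those called included the receptor chains Ifnar2 and Ifngr1 and the transcription factors Stat2, Irf1 and Irf2. Stat2 was at 206 ± 71.3 TPM in cytokine mRNA tumours and 38.5 ± 16.8 TPM in luciferase mRNA tumours (SD, n = 5 each; limma adjusted p = 0.00961). The other receptor chains, Ifnar1 and Ifngr2, did not pass, and Ifnar1 was at 36.5 ± 14.5 TPM in cytokine mRNA tumours and 36.2 ± 5.28 TPM in luciferase mRNA tumours (limma adjusted p = 0.907).

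Genes that act with Schlafen proteins did not pass. Rnh1, the inhibitor of angiogenin and related ribonucleases, was at 130.5 ± 84.9 TPM in cytokine mRNA tumours and 43.4 ± 6.83 TPM in luciferase mRNA tumours (limma adjusted p = 0.0502). Ang, the angiogenin gene, was at 12.1 ± 13.1 TPM in cytokine mRNA tumours and 2.51 ± 1.39 TPM in luciferase mRNA tumours (limma adjusted p = 0.111). Of Rpa1, Rpa2 and Rpa3, subunits of the single-stranded DNA binding complex that human SLFN11 joins, 0 of 3 passed, with log2 changes of -0.35, -0.76 and -1.13. Of 5 D-type cyclin and partner kinase genes, which drive exit from quiescence, 0 passed. Among them Ccnd2 was at 290.3 ± 189.6 TPM in cytokine mRNA tumours and 508 ± 76.8 TPM in luciferase mRNA tumours (limma adjusted p = 0.133).

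Leukocyte markers moved with the rising Schlafen genes. Genes counted as rising here are those called higher, against 7.41% of all genes tested. In the leukocyte lists the tested genes that were not called had positive changes too. Of 12 pan-leukocyte genes 11 rose, and the list summed to 520.5 to 4136 TPM in cytokine mRNA tumours and 90.4 to 455 TPM in luciferase mRNA tumours. Of 13 T cell genes tested 12 rose, and the list of 15 summed to 79.8 to 4087 TPM in cytokine mRNA tumours and 3.83 to 59.6 TPM in luciferase mRNA tumours. Of 14 macrophage and monocyte genes 11 rose, and the list summed to 896 to 16118 TPM in cytokine mRNA tumours and 149 to 684 TPM in luciferase mRNA tumours. Library 10 held the lowest of the cytokine mRNA values and library 7 the highest mean of the pan-leukocyte list, as for 5 of the 7 Schlafen genes. Of 7 cytotoxic and NK genes tested 7 rose, and the list of 10 summed to 58.7 to 2034 TPM in cytokine mRNA tumours and 1.39 to 26.5 TPM in luciferase mRNA tumours. Of 4 neutrophil genes tested 3 rose, and the list of 12, with Camp at 0 in all libraries, summed to 11.4 to 205 TPM in cytokine mRNA tumours and 1.84 to 11.6 TPM in luciferase mRNA tumours. Of 7 conventional dendritic cell genes tested 3 rose, and the list of 9 summed to 22.3 to 112 TPM in cytokine mRNA tumours and 4.78 to 22.6 TPM in luciferase mRNA tumours. In the remaining lists no gene passed. The B cell list, with 3 of 8 genes tested, summed to 26.9 to 317 TPM in cytokine mRNA tumours and 8.85 to 90.6 TPM in luciferase mRNA tumours. The 8 fibroblast genes summed to 232 to 2684 TPM in cytokine mRNA tumours and 98.8 to 1190.4 TPM in luciferase mRNA tumours, and the 8 endothelial genes summed to 90.0 to 134 TPM in cytokine mRNA tumours and 81.1 to 128 TPM in luciferase mRNA tumours. The erythroid list, with 3 of 6 genes tested, summed to 13.7 to 147 TPM in cytokine mRNA tumours and 3.78 to 81.1 TPM in luciferase mRNA tumours. None of 10 melanocyte genes passed, and no keratinocyte gene reached the filter. The part of these cells in the Schlafen values was not tested.

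Relative to the mean of the pan-leukocyte genes in the same tumour, none of the 3 called members passed with all 10 libraries. Slfn8 lay at -0.78 ± 0.33 in cytokine mRNA tumours and -1.17 ± 0.18 in luciferase mRNA tumours on the log2 scale (SD, n = 5 each), a difference of 0.39. The exact 2-sided permutation p was 0.0556, before adjustment over the 7 members, and limma over all genes, which was added after seeing the data and shares its estimate of the spread between genes, gave an SE of 0.56 (limma adjusted p = 0.504). Without library 8 the difference of Slfn8 was 0.52, higher in cytokine mRNA tumours, with the smallest exact permutation p that 4 against 5 tumours allow, 0.00794, and it passed after adjustment over the 7 members. For Slfn2 the difference was 0.37 (exact permutation p = 0.333; limma adjusted p = 0.545), and for Slfn1 it was 0.73 (exact permutation p = 0.175; limma adjusted p = 0.276). For Slfn5 and Slfn4 it was -0.90 and -0.56, which did not pass (exact permutation p = 0.0317 and 0.222 before adjustment, limma adjusted p = 0.147 and 0.378). By exact permutation adjusted over the 7 members, Slfn5 passed as lower in some alternatives. These were a pseudocount of 0.1 (-1.04), a pseudocount of 5 (-0.74) and leaving out library 5 (-1.13). Slfn4 passed as lower with a pseudocount of 5 (-0.92). Slfn3 and Slfn9 were lower on this scale, with differences of -3.58 and -2.92 (exact permutation p = 0.00794 for each; limma adjusted p = 0.00109 and 0.00127). On this scale 91.9% of 12485 genes were called lower and 0.232% higher, with a median difference of -2.98, so the values of Slfn3 and Slfn9 were near those of most genes.

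The members were also set against 3 other lists. By exact permutation adjusted over the 7 members, Slfn3 and Slfn9 passed as lower against each of them. Slfn5 passed as lower against the T cell genes and the macrophage and monocyte genes, and Slfn4 against the T cell genes. Slfn1, Slfn2 and Slfn8 passed against none of the 3. The share of all genes that is lower on these scales was not computed, so these passes are a description. Relative to T cell genes they were -0.02 for Slfn1, -0.37 for Slfn2, -0.35 for Slfn8, -1.31 for Slfn4, -1.65 for Slfn5, -4.32 for Slfn3 and -3.67 for Slfn9. Relative to macrophage and monocyte genes they were 0.57 for Slfn1, 0.22 for Slfn2, 0.23 for Slfn8, -0.72 for Slfn4, -1.06 for Slfn5, -3.74 for Slfn3 and -3.08 for Slfn9. Relative to the type I interferon-stimulated genes they were 1.32 for Slfn1, 0.96 for Slfn2, 0.98 for Slfn8, 0.03 for Slfn4, -0.31 for Slfn5, -2.99 for Slfn3 and -2.33 for Slfn9.

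**Figure D5:**
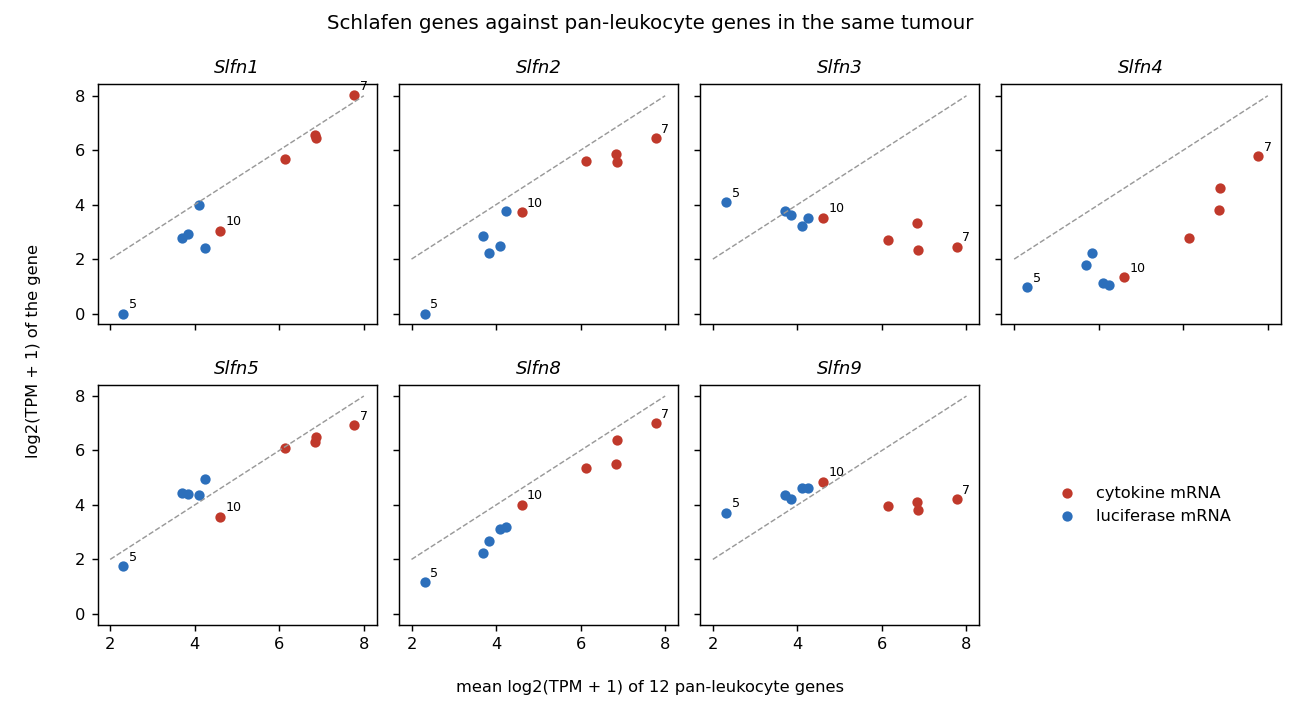
Log2(TPM + 1) of each Schlafen gene against the mean log2(TPM + 1) of 12 pan-leukocyte genes in the same tumour, with cytokine mRNA tumours in red, luciferase mRNA tumours in blue and a dashed line where both are equal. In 5 members the tumours lie along the direction of the dashed line from library 5 to library 7, while Slfn3 and Slfn9 stay between 4.02 and 28.1 TPM along the whole range.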

How the data were processed

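Polyadenylated RNA was sequenced from 10 tumours with stranded NuGEN libraries, per the labels' protocols. The authors deposited 1 table of TPM with a column for each tumour. STAR and GRCh38, a human build although the samples are mouse, are named as aligner and build per the submitters' processing notes, and no source used here gives the annotation or the counting program. TPM are shares, so abundant genes lower all others, and the depth and counting precision are unknown.

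Libraries were grouped by their titles, and the design gives 5 tumours per group. Genes with at least 1 TPM in at least 5 libraries (12497) were compared on log2(TPM + 1) with limma 3.58.1 (R 4.3.3, eBayes with trend, 2-sided), adjusted by Benjamini-Hochberg over all of them. Fold changes on this scale understate the change of low genes. The limma step was tested on simulated data. Pairs of members were compared by exact permutation over all splits of the tumours, in Python 3.11.15 with numpy 2.4.6. Alternatives were another pseudocount, filter, scaling, variance prior, weighting, test or threshold, and leaving out libraries, and limma on values relative to pan-leukocyte genes was added after seeing the data. Named genes were every member, each other Schlafen gene with a row, the 4 called interferon-stimulated genes with the largest change, genes of the receptor, partner and cyclin lists, and the 3 genes whose profile was nearest to each member. Genes beside the cluster, melanocyte genes in library 7 and a marker at 0 in all libraries were named after their values were seen. The members and lists were chosen with earlier results of these data known. Positions come from GENCODE M21 and RefSeq for GRCm38, not from the submitters' build.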

Additional observations from a re-analysis of the deposited data

Results flagged for a closer look

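Slfn9 in cytokine mRNA library 10 stood apart from the other tumours of its group. It was at 28.1 TPM there, against 13.1, 17.4, 16.2 and 14.5 TPM in cytokine mRNA libraries 6 to 9 and 12.1 to 23.9 TPM in luciferase mRNA tumours. Its gap to the nearest tumour was 0.714 of the range of the group, just over the limit of 0.71 for 5 samples. Of 16 groups examined in this way 1 passed that limit, and chance alone passes about 1 in 20. The mean of Slfn9 in cytokine mRNA tumours was 15.3 TPM without that library.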

How the results depend on the processing

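Of the 7 Schlafen genes, 3 were called, and the number was 1 with a pseudocount of 0.1, 5 with library quality weights or without libraries 7 and 10, and 0 with an exact rank test, at an adjusted p under 0.01 or without libraries 6 and 7. It was 1 to 6 when 1 library was left out. Over 24 alternatives Slfn8 kept its call in 21, Slfn2 in 19 and Slfn1 in 11. The log2 change of Slfn9, -0.12, turned to 0.036 under median-ratio scaling, and no other member changed sign. Alternatives of filter, variance prior, test and threshold leave the change as it was, so they cannot turn a sign. In the exact rank test no gene could pass, since even full separation of the groups, as in Slfn8, gave an exact rank test adjusted p of 0.0860. Its counts of 0 thus say nothing about single genes. Among type I interferon-stimulated genes, 23 called became 0 with the exact rank test, 7 at an adjusted p under 0.01 and 1 without libraries 6 and 7. Of all genes, 1304 called became 846 with no filter, 2769 with quality weights, 61 at an adjusted p under 0.01, 20 without libraries 6 and 7, 2607 without libraries 7 and 10, and 0 with the exact rank test, where 2914 had an unadjusted p under 0.05. It ranged from 367 to 3238 with 1 library left out. Of 21 pairs, 0 passed, against 7 with a pseudocount of 0.1 or 5 and 0 to 12 with 1 library left out. Relative to pan-leukocyte genes, 2 members (Slfn3 and Slfn9, lower) passed both by limma over all genes, an alternative chosen after seeing the data, and by exact permutation; by the second, the count was 4 with a pseudocount of 5, 0 without libraries 6 and 7, and 0 to 3 with 1 library left out, with 0 in turn without luciferase libraries 1, 2, 3 and 4 and with Slfn8 higher among the 3 without library 8. Without luciferase libraries 1, 2, 3 and 4 in turn, the differences stayed at -3.56 to -3.80 for Slfn3 and -2.93 to -2.99 for Slfn9. The exact permutation p was 0.0159 in each case, or 0.0556 adjusted over the 7 members. The cause of the moves in the counts above was not tested. No paired analysis was possible because the groups share no replicate number. TPM keep no depth, which limits what can be said of values near 0.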

Other observations

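For each Schlafen gene, the 3 genes outside the family with the nearest profile were found, by the root-mean-square difference between log2(TPM + 1) profiles over the 10 tumours after centring each on its own mean. For Slfn8 they were Rnf19b (0.22), Ly9 (0.23) and Gbp9 (0.27), a ubiquitin ligase, a lymphocyte surface receptor and a guanylate-binding protein. For Slfn2 they were Vsir (0.28), an inhibitory receptor, Themis2 (0.35) and Mpeg1 (0.35), a macrophage gene. For Slfn1 they were Ms4a7 (0.41), Pirb (0.42) and Lyz2 (0.42), of which Lyz2 encodes the lysozyme of macrophages and neutrophils. For Slfn4 they were Zc3h12d (0.32), Ifit1bl1 (0.36) and Frmd4b (0.37), and for Slfn5 Wfdc17 (0.25), Il33 (0.31) and Cyth4 (0.33). For Slfn3 they were Hcn3 (0.13), Lins1 (0.21) and Cox14 (0.21), and for Slfn9 Dnajb1 (0.14), Gtf3c5 (0.14) and Slc35a4 (0.17). Within the family Slfn3 and Slfn9 (0.58) and Slfn2 and Slfn8 (0.59) were nearest to each other, and Slfn1 and Slfn3 (2.81) were farthest apart.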
